A study of Homo sapiens with 4 samples.

Results

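Caspases are the cysteine proteases that carry out apoptosis and process inflammatory cytokines, and 8 genes of this machinery were followed here: the proteases CASP1, CASP4, CASP6, CASP8, CASP9 and CASP10, and the inhibitors CFLAR and XIAP. They were taken by symbol from a deposited table of 60623 genes, each symbol matched a single row, and all 8 passed the filter on low counts with 14810 genes in all. The libraries came from T24, an established line of human bladder carcinoma cells. In 2 libraries the cells overexpressed miR-146a-5p by label, which the series description calls transfection of a mimic, and in the other 2 they carried a scramble control. Nothing in the labels ties a library to a culture of its own, so each p-value below rests on library-to-library spread that may be technical.

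Cells hold caspases as inactive precursors. Death receptors at the cell surface recruit the initiators CASP8 and CASP10 through an adaptor, and CFLAR, a relative of CASP8 without protease activity, sits in the same complex and limits it. Damage sensed at the mitochondria activates CASP9 instead, initiators of either route cleave executioners, the class CASP6 belongs to, and XIAP binds and inhibits CASP9 among others. CASP1 and CASP4 belong to the inflammatory branch, in which CASP1 matures interleukin-1 beta and CASP4 responds to bacterial lipopolysaccharide inside the cell. MicroRNAs repress transcripts that pair with their seed, and miR-146a-5p is known for limiting signalling from interleukin-1 and Toll-like receptors.

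The sequences below show sites in XIAP, CASP9 and CASP10 that could pair with the seed of miR-146a-5p, beside the 2 sites of IRAK1, a textbook target. Sites in CFLAR are described after them and not printed. Capitals mark bases 2 to 8 of the microRNA and, in the sites, the stretch AGTTCTCA or the shorter GTTCTCA. The last A of each stretch lies opposite the first base of the microRNA, printed in lower case. The shorter stretch leaves base 8 of the microRNA unmatched. The microRNA sequence is from RefSeq (GRCh38.p14), and the sites are in 3' UTRs of GENCODE release 29 (GRCh38), on the transcript strand, 5' to 3'.
hsa-miR-146a-5p: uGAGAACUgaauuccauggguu
XIAP, chrX:123909976-123909983, plus strand: cccctcccaagAGTTCTCAgtgtctacatg
IRAK1, chrX:154011812-154011819, minus strand: ccggaagtcaaAGTTCTCAtggtcagaagt
IRAK1, chrX:154011796-154011803, minus strand: tcatggtcagaAGTTCTCAtggtgcacgag
CASP9, chr1:15492501-15492507, minus strand: caaacaaaaagGTTCTCAggtgttgccaa
CASP10, chr2:201219582-201219588, plus strand: aaactgaagctGTTCTCAggatcactggg

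XIAP was the 1 member with an 8-mer, AGTTCTCA, and the site lies in the 3' UTR of all 3 of its annotated basic coding transcripts. CASP9 and CASP10 have the shorter match GTTCTCA, in 3 of 4 and 3 of 7 such transcripts with a 3' UTR. CFLAR has 4 matches of that shorter kind, each in 1 of 11 transcripts with a 3' UTR, the longest of which is 12714 bases. CASP1, CASP4, CASP6 and CASP8 have no match of 7 or 8 letters in these 3' UTRs (the 8-mer, the match GTTCTCA or the match AGTTCTC, sense strand only, with a short match inside an 8-mer counted once). Across tested genes with a 3' UTR, 5.22% of 12377 carry an 8-mer and 22.7% carry any of these matches. These shares are not matched for 3' UTR length. The longest 3' UTR ran from 2952 (CASP9) to 12714 bases (CFLAR) in the members with a match. In those without a match it ran from 113 (CASP4) to 1117 bases (CASP8). A match describes letters in the annotation and was not tested as a working site.

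Depth was even across libraries, at 21544243 and 20290055 estimated counts in the miR-146a-5p libraries and 22388468 and 22774090 in the scramble libraries. The labels were checked on IRAK1, which had 2329 and 2217.3 counts in miR-146a-5p libraries, against 11155 and 16314 in scramble libraries, a 5.65-fold decrease by DESeq2 (adjusted p = 5.03e-09) that edgeR did not call (adjusted p = 0.728). MIR3142HG, the host transcript of miR-146a, had 179 and 194 counts in miR-146a-5p libraries, against 24 and 9 in scramble libraries. DESeq2 gave it an adjusted p of 2.71e-05 and edgeR 0.959. Its level does not check the labels, since the series description has a mimic transfected. The scramble libraries stood apart from each other: 23.5% of tested genes differed more than 2-fold between them, against 2.71% between the miR-146a-5p libraries. Of 14 urothelial and epithelial markers 7 were tested. The keratins KRT7, KRT8 and KRT18 were abundant, and KRT19 and FOXA1 had 294 to 969 counts. EPCAM and GATA3 had at most 32 and 25 counts. KRT5 and UPK3A were at 0 in every library, and KRT20, UPK1A, UPK1B, UPK2 and CDH1 had at most 3 counts in any. Leukocyte markers, which matter because myeloid cells are rich in CASP1, summed to 17.3 and 13.4 CPM in miR-146a-5p libraries and 12.7 and 16.3 CPM in scramble libraries (CPM, counts scaled to the library total), with CD3E and SPI1 at 0. Of these sums CD68, a lysosomal protein of macrophages, gave 15.7 and 12.3 CPM with miR-146a-5p and 11.6 and 14.45 CPM with scramble. Fibroblast markers summed to at most 2.41 CPM and endothelial markers to at most 0.591 CPM in any library. In bulk RNA, fewer cells of a type and less RNA per cell cannot be told apart.

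None of the 8 genes changed by the test across all genes. edgeR's quasi-likelihood test with Benjamini-Hochberg adjustment called 0 of 8 (adjusted p between 0.970 and 0.987), against 0% of the 14810 genes tested. At an unadjusted p under 0.05 it passed 0 of 8, against 3.71% of all tested genes. DESeq2 called 0 of 8 as well (adjusted p 1.00 for each), against 0.324% of the genes it tested, 0.274% higher and 0.0499% lower. Their median log2 fold change was 0.085, beside a median of -0.001 over all tested genes. In 3 of 8 genes the groups did not overlap in CPM, which is near the 36.0% of all tested genes in which they did not. CASP6 was above both scramble libraries, as were 18.0% of tested genes, and CASP4 and CASP9 were below both, as were 18.0%. The authors' deposited table lists none of the 8 as significant, with an adjusted p of 0.99996 for each.

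**Figure D1:**
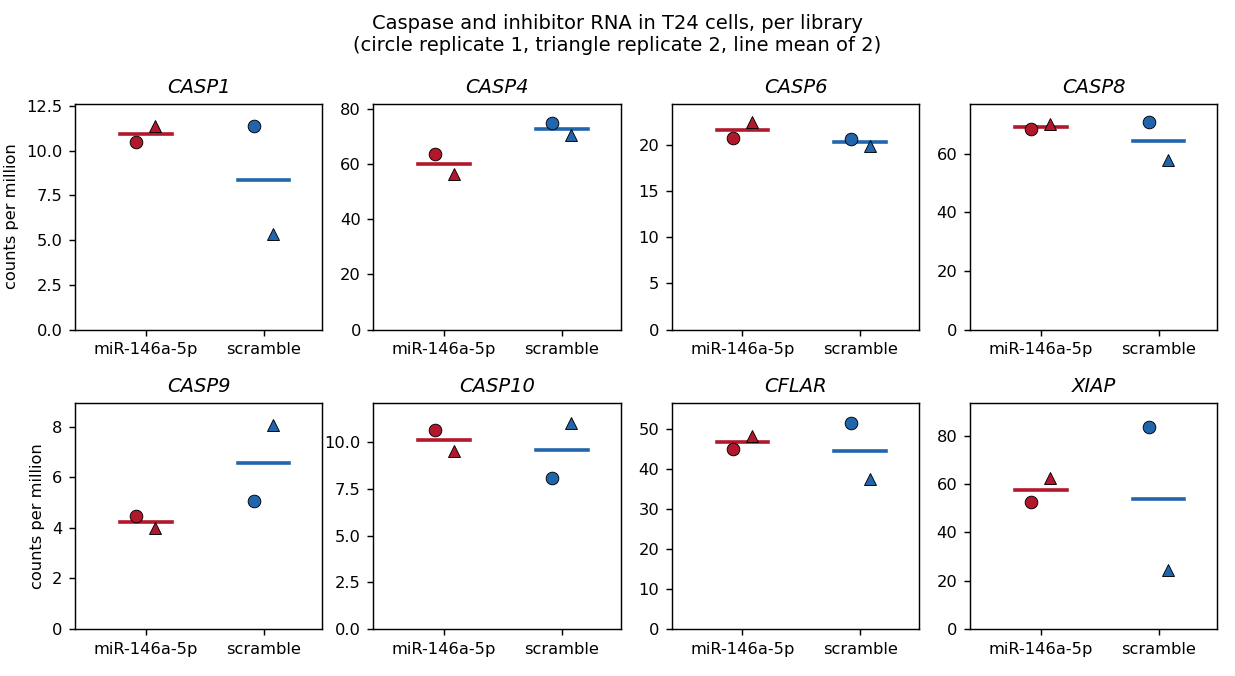
Level in CPM (linear axis from 0, scaled per panel) of the 8 genes in each library, with circles for replicate 1, triangles for replicate 2 and a line at the mean of 2. The miR-146a-5p points of CASP4 and CASP9 sit below both scramble points, those of CASP6 sit just above both, and the scramble points of XIAP lie at 83.7 and 24.3 CPM on either side of the miR-146a-5p pair.

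On the apical death-receptor arm, CASP8, the initiator that death receptors recruit, had 1475 and 1424 estimated counts in miR-146a-5p libraries, against 1585 and 1316 in scramble libraries. Its level was 69.3 ± 1.22 CPM with miR-146a-5p and 64.3 ± 9.20 CPM with scramble (SD, n = 2 each), and the miR-146a-5p values lay between the scramble values. The log2 fold change of CASP8 was 0.11 ± 0.21 (SE), with a 95% interval from -0.46 to 0.67 (edgeR, adjusted p = 0.970). CASP10, the second initiator of this arm, had 230 and 193.66 counts with miR-146a-5p and 181 and 251.58 with scramble. These groups overlapped too, and the log2 fold change of CASP10 was 0.08 (95% interval -0.65 to 0.81).

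CFLAR, the inhibitor known as c-FLIP, had 967.01 and 980.15 counts in miR-146a-5p libraries, against 1153.96 and 851 in scramble libraries. The scramble values lay on either side of the pair, and its log2 fold change was 0.07 (95% interval -0.60 to 0.73). In TPM (abundance scaled by transcript length and library total, so that genes can be compared), the ratio of CFLAR to CASP8 was 0.445 and 0.530 with miR-146a-5p and 0.423 and 0.572 with scramble. Its mean was 0.487 ± 0.0600 with miR-146a-5p against 0.498 ± 0.105 with scramble (SD, n = 2 each), a difference smaller than either SD. An exact permutation test gave a two-sided p of 1.000. Its smallest possible p is 0.333, so it could not have found a difference. CFLAR, CASP10 and CASP8 are neighbours on chromosome 2 in that order (GENCODE release 29, GRCh38), at 201116104 to 201176687, 201182881 to 201229406 and 201233443 to 201287711, with gaps of 6193 and 4036 bases. All 3 lie on the plus strand, and CFLAR overlaps an antisense gene, CFLAR-AS1, whose reads cannot be told apart from its own if strand was not used in counting.

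In the mitochondrial arm, CASP9, the protease activated in the apoptosome, was lower in both miR-146a-5p libraries than in either scramble library. Its counts were 96 and 81 with miR-146a-5p and 113 and 184 with scramble, or 4.22 ± 0.328 CPM with miR-146a-5p and 6.56 ± 2.14 CPM with scramble (SD, n = 2 each). The log2 fold change of CASP9 was -0.64 ± 0.33 (SE), the most negative of the 8, and its 95% interval ran from -1.54 to 0.27. It did not pass edgeR (unadjusted p = 0.125, adjusted p = 0.970). Beside it, scramble replicate 2 was 1.60-fold above scramble replicate 1, and without replicate 2 the log2 fold change was -0.24 (adjusted p = 0.586).

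XIAP, an inhibitor of CASP9, had 1135.74 and 1270 counts in miR-146a-5p libraries, against 1874.73 and 553.8 in scramble libraries. Scramble replicate 1 was the highest of the 4 libraries and scramble replicate 2 the lowest, 3.44-fold apart in CPM. Its log2 fold change was 0.09 ± 0.63 (SE), with the widest interval of the 8 genes, from -1.61 to 1.79 (edgeR, adjusted p = 0.987). With scramble replicate 2 left out XIAP was lower with miR-146a-5p (log2 fold change -0.53, adjusted p = 1.39e-07 by edgeR and 0.0104 by DESeq2). With scramble replicate 1 left out it was higher (1.24, adjusted p = 1.99e-27 by edgeR and 2.68e-10 by DESeq2). Each of these fits takes the spread from the miR-146a-5p pair and assumes that the lone scramble library varies like it. The transcript with the 8-mer shown above therefore has a direction that is set by which scramble library it is read against.

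Among the executioners, CASP6, which cleaves nuclear lamins, had 448 and 458 counts with miR-146a-5p and 464 and 453 with scramble. Scaled by library total, 20.8 and 22.6 CPM with miR-146a-5p lay just above 20.7 and 19.9 CPM with scramble. The log2 fold change of CASP6 was 0.09, with a 95% interval from -0.44 to 0.63, among the narrowest of the 8. CASP6 was also the member whose scramble libraries differed least (log2 difference -0.06 between replicates 2 and 1).

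In the inflammatory branch, CASP4, a sensor of intracellular lipopolysaccharide, had 1369 and 1146 counts in miR-146a-5p libraries, against 1677 and 1608 in scramble libraries. Both miR-146a-5p libraries lay below both scramble libraries, at 60.0 ± 4.99 CPM with miR-146a-5p against 72.8 ± 3.04 CPM with scramble (SD, n = 2 each). The log2 fold change of CASP4 was -0.28 ± 0.20 (SE), or 0.824-fold, with a 95% interval from -0.81 to 0.25 (edgeR, adjusted p = 0.970). With 1 scramble library left out CASP4 was at -0.31 without scramble replicate 2 and -0.23 without scramble replicate 1 (edgeR). The shared direction follows from the lack of overlap and adds nothing to it. DESeq2 did not call CASP4 in either case.

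CASP1, the protease that matures interleukin-1 beta, had 225.97 and 231 counts in miR-146a-5p libraries, against 254 and 122 in scramble libraries. Scramble replicate 1 lay near the miR-146a-5p pair and scramble replicate 2 was 2.12-fold below replicate 1 in CPM. The log2 fold change of CASP1 was 0.39 ± 0.42 (SE), with a 95% interval from -0.76 to 1.54 (edgeR, adjusted p = 0.970). Against scramble replicate 2 alone CASP1 was at 1.03, and against replicate 1 alone it was at -0.04 (edgeR). CASP1 and CASP4 lie 56006 bases apart on the minus strand of chromosome 11 (105025443 to 105035250 and 104942866 to 104969436), and their log2 fold changes had opposite signs. The ratio of CASP4 to CASP1 in TPM was 3.50 and 3.17 with miR-146a-5p and 4.70 and 7.48 with scramble, lower in 2 of 2 libraries (exact permutation test, two-sided p = 0.333, the smallest possible).

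Leaving out 1 library at a time showed how far the calls rest on the scramble pair. Without scramble replicate 1 edgeR called 6 of the 8 genes, where it called 54.9% of all genes. CASP1, CASP8 (0.26, adjusted p = 0.0111), CFLAR (0.32, 0.00663) and XIAP were higher with miR-146a-5p, against 28.5% of all genes called higher, and CASP4 and CASP9 (-0.93, 0.000183) were lower, against 26.4%. Without scramble replicate 2 it called 2 of the 8, CASP4 and XIAP, both lower with miR-146a-5p, where it called 21.7% of all genes, 10.1% higher and 11.7% lower. CASP4 was the member called in the same direction by edgeR in both cases. It lay below both scramble libraries in CPM, as did 18.0% of tested genes. Both fits use the same miR-146a-5p pair, and the share of all genes called alike in both was not counted. DESeq2 called 2 of 8 (CASP1 and XIAP) without scramble replicate 1, against 38.1% of all genes, and 1 of 8 (XIAP) without scramble replicate 2, against 9.64%. Without miR-146a-5p replicate 1 or replicate 2, 0 of 8 were called by edgeR, against 0.0776% and 0.0517% of all genes, and 0 of 8 by DESeq2, against 0.00807% and 0.00809%. A fit with the replicate number as a block also called 0 of 8, against 0.0338%, and limma-voom called 0 of 8 and 0% of all genes.

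**Figure D2:**
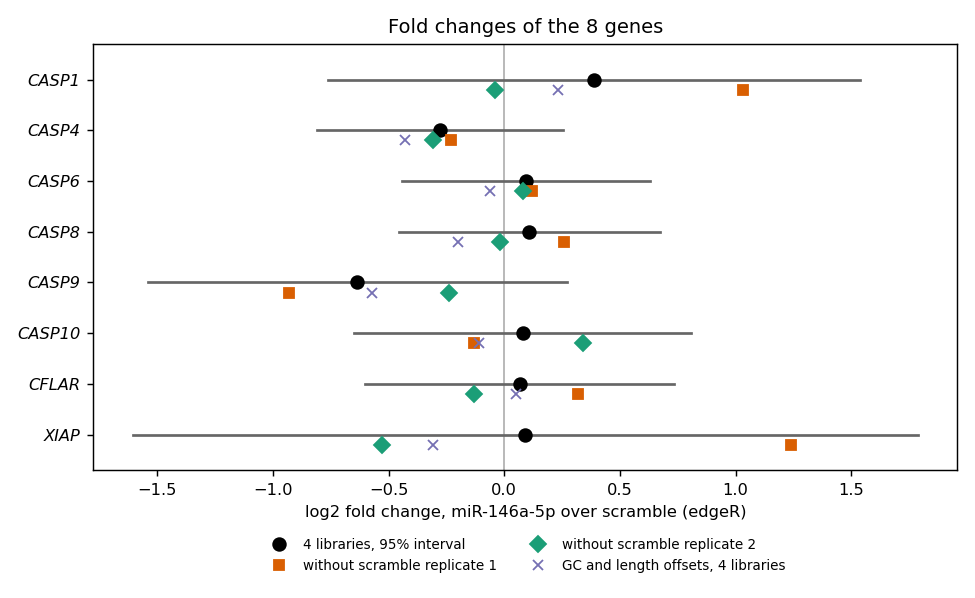
Log2 fold change of each gene, miR-146a-5p over scramble, by edgeR, with black points and 95% intervals for 4 libraries and colored marks for 1 scramble library left out or for GC and length offsets. All 8 intervals cross 0, the marks of XIAP spread from -0.53 to 1.24, and those of CASP4 stay between -0.43 and -0.23.

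The spread within the scramble group followed base composition, and the 8 genes lay at different distances from that trend. Among tested genes with a transcript GC content under 40%, scramble replicate 2 was below replicate 1 by a median log2 difference of -1.70, and XIAP, at 39.1% GC, differed by -1.78. Between 40% and 45% GC the median was -0.62, and CASP1 and CASP8 there differed by -1.07 and -0.29. From 45% to 50% the median was 0.06, with CASP4 at -0.09, CASP6 at -0.06, CASP10 at 0.45 and CFLAR at -0.46. CASP9, at 52.8% GC, differed by 0.67 where the median was 0.29. The same medians for the miR-146a-5p pair stayed between -0.06 and 0.09. In 6 of 8 genes the scramble libraries differed by more than the miR-146a-5p libraries, and this held in 84.3% of all tested genes. With GC and length trends of each library removed, XIAP was at -0.31, CASP8 at -0.20, CASP10 at -0.11 and CASP6 at -0.06, each turned in sign, while CASP9 was at -0.57, CASP4 at -0.43, CASP1 at 0.23 and CFLAR at 0.05. None of the 8 was called in that fit (edgeR adjusted p between 0.434 and 0.934), against 0% of the 14679 genes it tested. At an unadjusted p under 0.05, 1 of the 8 passed in that fit, and the share over all genes was not counted.

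**Figure D3:**
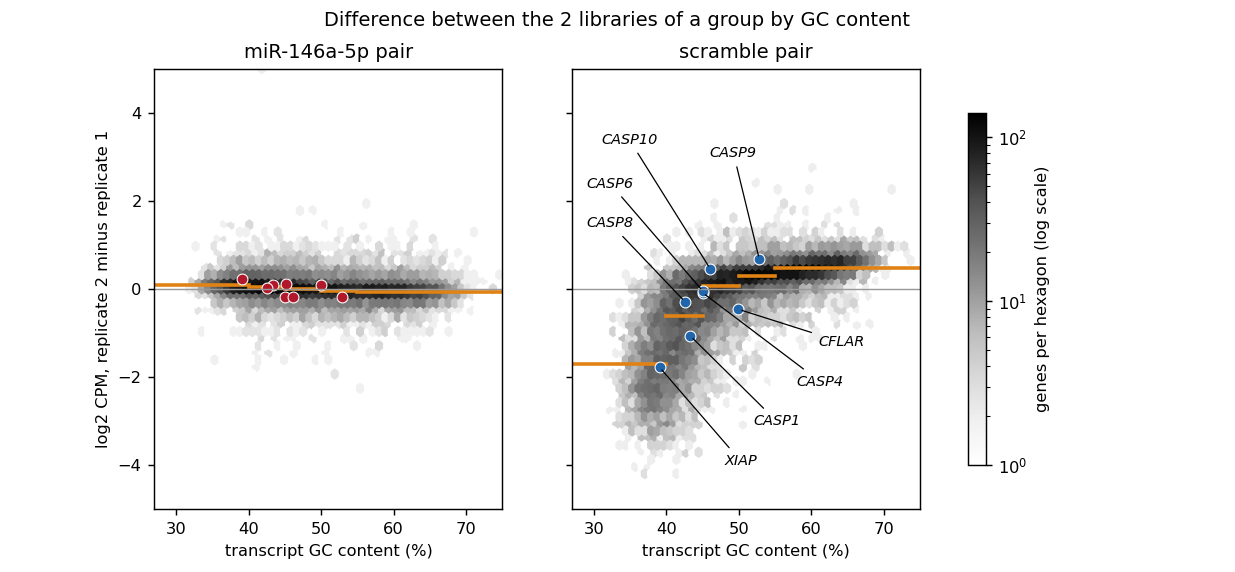
Log2 CPM of replicate 2 minus replicate 1 against transcript GC content (%) for all tested genes with a reference transcript (grey hexagons, log-scaled density), with orange lines at the median per GC class and the 8 genes as points, for the miR-146a-5p pair on the left and the scramble pair on the right. The miR-146a-5p points lie near 0, while the scramble points run from -1.78 for XIAP to 0.67 for CASP9.

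In levels per length, CASP4 was the most abundant of the 8 in every library and CASP8 the next. CASP4 had 73.8 and 67.3 TPM in miR-146a-5p libraries and 91.7 and 79.3 TPM in scramble libraries, and CASP8 had 49.1 and 43.5 TPM with miR-146a-5p against 46.1 and 35.1 TPM with scramble. CASP6 (26.5 ± 0.205 TPM), CFLAR (22.4 ± 0.856), CASP1 (21.1 ± 0.120) and XIAP (19.7 ± 0.778) followed in that order with miR-146a-5p (SD, n = 2). In scramble cells CASP6 (21.7 ± 2.93 TPM), CFLAR (19.8 ± 0.382), XIAP (18.5 ± 15.99) and CASP1 (15.1 ± 6.30) were not separated beyond their spread. CASP10 and CASP9 were the lowest, at 3.03 ± 0.163 and 2.65 ± 0.0566 TPM with miR-146a-5p and 3.10 ± 0.219 and 3.55 ± 1.03 TPM with scramble. In TPM the groups did not overlap for 5 of 8 genes, against 37.9% of all tested genes. CASP1 and CFLAR, above both scramble libraries in TPM, overlapped in CPM, so for these 2 genes the separation depended on the unit.

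Around the 8 genes, 63 further genes in 9 lists of the death and inflammasome pathways were read from the same fit. Of these 47 were tested, edgeR called 0, and DESeq2 called 1 higher and 0 lower, against 0.324% of all genes it tested. At an unadjusted p under 0.05, 2 passed edgeR, against 3.71% of all tested genes. Their median log2 fold change was -0.06, beside -0.001 over all tested genes, with 21 of 47 positive. In CPM 10 were above both scramble libraries and 10 below both, near the 18.0% of all tested genes on each side.

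The gene DESeq2 called was IL1B, whose product is the substrate of CASP1. IL1B rose to 4561 and 4167 counts in miR-146a-5p libraries, against 1722 and 2054 in scramble libraries, with no overlap. Its log2 fold change was 1.30 ± 0.30 (SE, DESeq2 adjusted p = 0.00778), and edgeR gave 1.32 with an adjusted p of 0.959. The DESeq2 call was lost when either miR-146a-5p library was left out (adjusted p = 1.00 in both cases), with log2 fold changes of 1.27 and 1.32. Against a single scramble library IL1B was at 1.20 without replicate 1 and 1.44 without replicate 2 (DESeq2). The other 4 tested inflammatory substrates, IL18 and the gasdermins GSDMB, GSDMD and GSDME, did not pass, and the median of the 5 was -0.22.

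Of the other caspases, CASP5 and CASP12 were at 0 in all 4 libraries and CASP14 had a maximum of 7 counts. CASP2, an initiator linked to genome damage, had 925 and 873 counts with miR-146a-5p and 1387 and 1629 with scramble. Both miR-146a-5p libraries lay below both scramble libraries, and its log2 fold change was -0.64 (95% interval -1.17 to -0.10, edgeR unadjusted p = 0.0299, adjusted p = 0.970). Against a single scramble library CASP2 was at -0.73 without replicate 1 and -0.52 without replicate 2 (edgeR). The shared direction follows from the lack of overlap and adds nothing to it.

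In the list of inhibitor of apoptosis proteins, the family of XIAP, together with antagonists of that family, 7 of 9 genes were tested and 0 passed by either tool, with a median of 0.05. BIRC2, the inhibitor cIAP1, had 116 and 134 CPM with miR-146a-5p, against 72.3 and 18.4 CPM with scramble (log2 fold change 1.46, edgeR adjusted p = 0.970). BIRC3, the inhibitor cIAP2 and a known target of NF-kB, had 23.7 and 28.0 CPM with miR-146a-5p, against 15.9 and 1.54 CPM with scramble (1.57, adjusted p = 0.970). Both were above both scramble libraries, and both are poor in GC, at 38.0% and 38.2%. Without scramble replicate 2 the log2 fold changes were 0.80 for BIRC2 and 0.72 for BIRC3, and without replicate 1 they were 2.77 and 4.07 (edgeR). With GC and length offsets they were 1.12 and 1.43, not called (adjusted p = 0.274 and 0.475).

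In the remaining lists 0 genes passed by either tool. Death ligands, receptors and adaptors had 11 of 13 tested, with a median of 0.11. Their smallest p-values were those of TNF, the cytokine (3.95 and 4.29 CPM with miR-146a-5p against 2.64 and 2.99 CPM with scramble), and FAS, the receptor of Fas ligand (77.3 and 78.7 CPM with miR-146a-5p against 62.8 and 18.5 CPM with scramble). The list labelled apoptosome, of CYCS, APAF1, AIFM1 and ENDOG, had a median of 0.04 over 4 tested. AIFM1 and ENDOG are mitochondrial proteins outside the apoptosome itself. CYCS, cytochrome c, was at 0.24 and the nuclease ENDOG at -0.40. Of the necroptosis list CYLD (0.49) and MLKL (-0.23) were tested, and of the inflammasome list 4 of 7, with a median of -0.07, CARD8 at 0.23 and NLRP3 at -0.14. Among executioner substrates 10 of 10 were tested, with a median of -0.21. XRCC4, a DNA repair protein, was at 1.27 and DFFB, the nuclease that cuts DNA in apoptosis, at -0.59. CARD16, a regulator of CASP1 encoded beside it, had 4.03 and 14 counts with miR-146a-5p and 24 and 13 with scramble, while CARD17 and CARD18 were at 0 in every library.

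**Figure D4:**
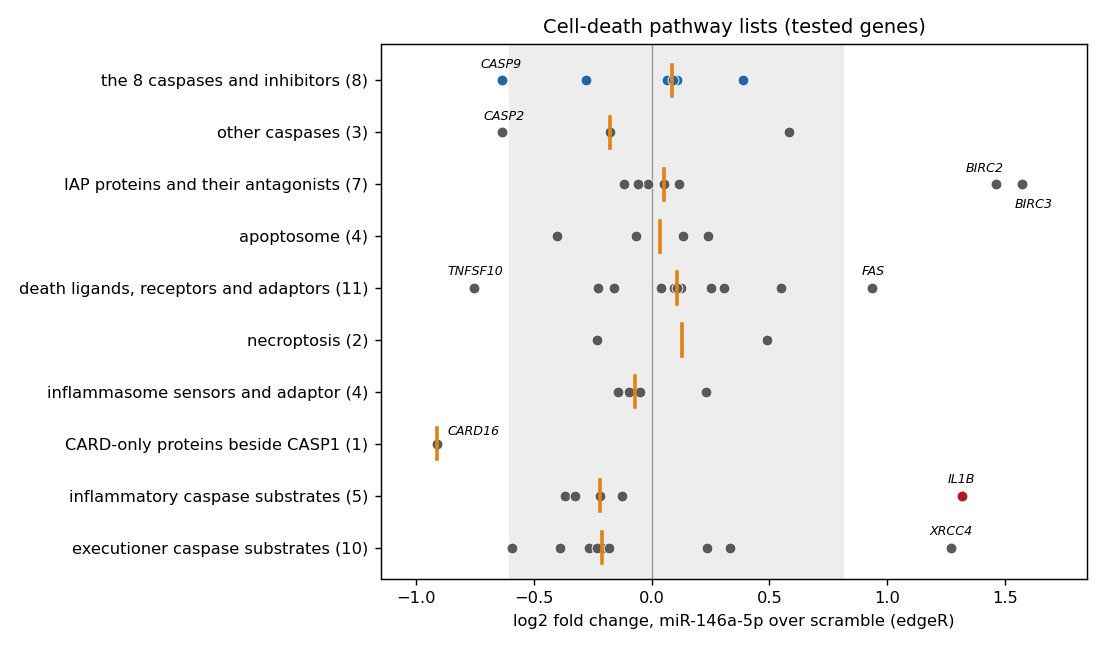
Log2 fold change (edgeR, miR-146a-5p over scramble) of each tested gene in the 8-gene set and the 9 pathway lists, number tested in brackets, orange ticks at list medians, and a grey band holding the middle 90% of all tested genes (-0.60 to 0.81). IL1B, in red, is the gene called by DESeq2, while BIRC2, BIRC3, XRCC4 and FAS lie above the band and CASP9, CASP2, TNFSF10 and CARD16 below it without a call in 4 libraries.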

How the data were processed

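RNA was measured in 2 miR-146a-5p and 2 scramble libraries. Upstream software, per the submitters' processing notes and with no role stated, was HISAT2 2.0.1, HTSeq 0.6.1, cutadapt 1.9.1 and DESeq2, on hg19. The deposited table gives estimated counts, TPM per library and as group means, and a fold change, log2 fold change and p-value made by the authors. The tool behind fractional counts and any use of strand are not given in the sources used here. Taking genes above 0 in each library, 34.3% of count values were not whole. Counts of 4 of the 8 genes were fractional in some library. CASP1 shares 5.99% of its 50-base words with CARD16, and CFLAR shares 6.95% with the opposite strand of IMPDH1P10, so these counts may be split. CFLAR and XIAP also overlap the antisense genes CFLAR-AS1 and XIAP-AS1, and CASP6 overlaps MCUB.

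Counts were rounded, filtered with filterByExpr (minimum 10, total 15) and tested with edgeR 4.0.16 (TMM, group as the only term, R 4.3.3), with Benjamini-Hochberg adjustment over all genes and a threshold of 0.05. Intervals come from the F statistic. DESeq2 1.42.0 on all genes and limma 3.58.1 (voom) were alternatives. GC content came from the GENCODE release 29 transcript nearest in length to the authors' listed length (99.1% of tested genes), a detail set after the data were seen. Named genes are the 8 members, IRAK1, MIR3142HG and, per list, genes past DESeq2 or the 2 with the smallest edgeR p. Genes at 0, TNFSF10, the tested inflammatory substrates and the cell type markers were named after their values were seen. Of the genes this rule names, 1 is not reported here. The members and lists were chosen with earlier results of these data known. The fits were tested on simulated data.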

Additional observations from a re-analysis of the deposited data

How the results depend on the processing

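The count of genes past the threshold was 0 by edgeR, 52 by DESeq2, 5 with a replicate block and 2 to 8421 when 1 library was left out by either tool. For the 8 genes the count was 0 with all 4 libraries in every fit run, and 0 to 6 with 1 library left out. The 6 came without scramble replicate 1, where edgeR called 54.9% of all genes, and 2 were called without scramble replicate 2, where it called 21.7%. The count over the 9 pathway lists was 0 by edgeR, 1 by DESeq2 and 0 to 31 with 1 library left out, the 31 without scramble replicate 1. Across leave-one-out fits the log2 fold changes ranged from -0.05 to 1.03 for CASP1, -0.40 to -0.19 for CASP4, 0.01 to 0.16 for CASP6, -0.03 to 0.26 for CASP8, -0.94 to -0.24 for CASP9, -0.13 to 0.34 for CASP10, -0.14 to 0.32 for CFLAR and -0.54 to 1.24 for XIAP. With GC and length offsets the values that turned were -0.06 for CASP6, -0.20 for CASP8, -0.11 for CASP10 and -0.31 for XIAP, and with the replicate block together with those offsets -0.06, -0.19, -0.05 and -0.31. The log2(TPM + 1) difference of CASP10 was -0.02. The cause of these turns was not tested. In all, 105 of 136 alternative tests of the 8 genes kept their direction and side of the threshold, and 7 of 8 differences in log2(TPM + 1), which have no test, kept their direction.

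The replicate numbers share only a number: deviations of same-numbered libraries were correlated at -0.145 over 14810 genes, so the block served as an alternative, and it called 0 of the 8. The crossed pairing, added after the data were seen, called 0 genes. DESeq2 with 1 library left out was also added then.

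With 2 libraries per group and the scramble pair as far apart as here, intervals allow CASP9 fold changes from 0.344 to 1.21 and XIAP fold changes from 0.329 to 3.46.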

Other observations

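The deposited counts and TPM did not move together for CFLAR, nor for some other members. Dividing counts by TPM, scaled per library by the median over tested genes with at least 100 counts and 1 TPM in every library, gives the length that each library's TPM implies. For CFLAR this was 3136 and 3235 bases in miR-146a-5p libraries, against 4214 and 2633 bases in scramble libraries, while the table lists 2128 bases. For CASP4 it stayed between 1260 and 1314 bases in all 4 libraries, against a listed 1296. For CASP1 it was 760 and 827 bases in miR-146a-5p libraries and 929 and 715 in scramble libraries, against a listed 1477. For XIAP it ran from 3965 to 5035 bases against a listed 8584, and for CASP9 from 2360 to 2858 against 4463. Scramble replicate 1 of CFLAR therefore had the highest count of the 4 libraries, 1153.96, and the lowest TPM, 19.5.

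By Euclidean distance in mean-centred log2 CPM over the 4 libraries, the tested genes nearest to CASP9 were CTU2 (0.0340), P2RX5 (0.0407) and KRT18 (0.0445), and those nearest to CASP4 were VPS11 (0.0386), MRPS25 (0.0494) and SLC35G2 (0.0495). With 4 libraries such closeness is common: 221 genes lay within 0.2 of CASP9 and 248 within 0.2 of CASP4.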
